A study of Mus musculus with 4 samples.

Results

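Nr5a2 and 7 Krüppel-like factor genes (Klf2, Klf3, Klf4, Klf5, Klf6, Klf9 and Klf17) were followed from the mouse oocyte to the blastocyst and in mouse embryonic stem cells (mESC). These 8 genes were taken by symbol from the 20171 genes of the gene table, and 29 of the 68012 isoforms of the isoform table were assigned to them. Full-length cDNA of single cells had been read with cell barcodes and unique molecular identifiers (UMIs, tags that let copies of 1 molecule be counted once) on the PacBio platform by HIT-scISOseq, a method that joins several cDNAs into 1 long insert. Values are given as copies per 100,000 UMIs of a cell, so that a level is a share of the RNA read from that cell. Fewer transcripts of a gene and more transcripts of all other genes cannot be told apart on this scale.

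The embryos came from superovulated C57BL/6J females, 6 to 8 weeks old, mated with DBA/2NCrl males per the series text, whereas the strain label of the samples reads DBA/2J x C57BL/6J. All females received PMSG and hCG, and no genetic change or drug treatment separated the groups. MII oocytes were collected from unmated females 20 hours after hCG, zygotes at 22 to 24 hours and early 2-cell embryos (E2C) at 30 to 32 hours. Late 2-cell embryos (L2C) were collected at 46 to 48 hours, 4-cell embryos at 54 to 56 hours, 8-cell embryos at 68 to 70 hours, 16-cell and 32-cell embryos at 78 to 80 hours and early blastocysts at 88 to 90 hours. The mESC were the E14 Tg2A line, grown on gelatin in medium with serum. The replicates were 10 oocytes and 9 zygotes, and among embryos 5 at E2C, 6 at L2C, 5 at 4-cell, 4 at 8-cell and 4 at 16-cell, which makes 43 replicates with 121 cells. No embryo or culture is named for 22 cells of the 32-cell stage, 13 of the blastocyst and 5 mESC, and these are given as a range and a median over cells, with no test.

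The depth of a cell ran from 4985 to 389775 UMIs of the gene table (median 38914). In the median 4-cell blastomere 1 UMI was worth 3.08 copies per 100,000, and in the shallowest 20.1. The summed level of 5 oocyte marker transcripts (Zp3, Gdf9, Bmp15, H1foo and Mos) had a median of 2468 in oocytes, 1157 in zygotes, 312 in E2C and 78.8 in L2C. In oocytes this sum was mostly H1foo (mean 1593) and Gdf9 (697). Zp3 had a mean of 9.91 in oocytes and 24.3 in L2C, and Bmp15 had 44.2 in oocytes, 167 in E2C and 4.35 in L2C. The median sum was 150 in 4-cell, 70.7 in 8-cell and 111 in 16-cell cells, 6.33 in 32-cell cells, 160 in blastocyst cells and 91.1 in mESC. Oocyte transcripts thus stood in mESC as well, where 1 of the 5 markers was at 0, and low levels of any member in late stages and mESC are read beside these values. The source of these oocyte transcripts in late stages and mESC was not tested, nor was its part in the levels of the members. A list of 5 late 2-cell markers went against its label, with a median sum of 15.9 in E2C and 4.41 in L2C, so that L2C is used here as the authors' column name. A list of 5 blastocyst markers (Cdx2, Gata3, Krt8, Krt18 and Nanog) did not single out its stage. Its median sum was 33.8 in blastocyst cells, 36.3 in 32-cell and 35.5 in 16-cell cells. The mESC list (Pou5f1, Sox2, Nanog and Zfp42) stood at 196 in mESC, the highest median of any stage. Within it, Nanog was lower in mESC (mean 5.98) than in blastocyst cells (8.55). Of 7 cumulus or granulosa cell markers 4 were in the table, and their median sum was at most 0.515 in every stage. The column names of 32-cell cells, blastocyst cells and mESC name no run, so that stage and run cannot be told apart there.

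Nr5a2 (also named LRH-1) is an orphan nuclear receptor that binds DNA as a monomer through zinc fingers and can open closed chromatin. Krüppel-like factors bind GC-rich and CACCC elements through C2H2 zinc fingers near their C terminus, and their N-terminal parts recruit coactivators or corepressors. In the mouse embryo, zygotic genome activation (ZGA) runs from the zygote to the late 2-cell stage, and Nr5a2 and several Klf factors are known to act in it or soon after. Klf2, Klf4 and Klf5 are known for their part in mESC self-renewal, and Klf5 also for the trophectoderm. Klf17 is known as a Klf gene expressed in the oocyte.

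Nr5a2 lies on the minus strand at chr1:136842571-136960448 (GRCm38, GENCODE vM21) and has more than 1 annotated first exon, and Klf17 lies on the minus strand at chr4:117757836-117765648. The promoter windows of Nr5a2 and Klf17 are shown first. They were chosen after the search for starts and motifs, because the Klf17 window and the downstream Nr5a2 window hold both isoform starts and motif matches, and the upstream Nr5a2 window is given for comparison. They run 5′ to 3′ on the gene strand and were taken from RefSeq (GRCm38.p6). Capitals mark matches, on either strand, to CAAGGNCA (the element that NR5A receptors bind) or to CCACNCCC (a Klf element).
Nr5a2 upstream window, chr1:136960419-136960698: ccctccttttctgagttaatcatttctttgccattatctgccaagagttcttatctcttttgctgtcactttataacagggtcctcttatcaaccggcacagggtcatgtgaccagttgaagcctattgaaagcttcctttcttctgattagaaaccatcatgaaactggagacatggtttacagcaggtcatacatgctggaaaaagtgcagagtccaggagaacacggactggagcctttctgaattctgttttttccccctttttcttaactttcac
Nr5a2 downstream window, chr1:136953666-136953880: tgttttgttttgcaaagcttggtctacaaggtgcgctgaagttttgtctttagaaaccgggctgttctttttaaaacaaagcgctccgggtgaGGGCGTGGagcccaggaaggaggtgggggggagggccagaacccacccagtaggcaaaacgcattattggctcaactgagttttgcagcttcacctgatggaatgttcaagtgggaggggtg
Klf17 window, chr4:117765641-117765916: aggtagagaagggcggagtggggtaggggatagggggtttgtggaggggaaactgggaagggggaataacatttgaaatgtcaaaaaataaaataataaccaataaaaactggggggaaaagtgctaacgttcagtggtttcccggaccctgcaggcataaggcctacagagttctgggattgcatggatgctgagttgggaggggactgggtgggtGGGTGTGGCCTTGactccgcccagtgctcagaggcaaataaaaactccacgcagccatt

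In the downstream Nr5a2 window a CCACNCCC match lay on the other strand from base 94, and both 9-exon Nr5a2 isoforms started at base 186 of the same window. No deposited Nr5a2 isoform started in the upstream window, which held neither element. The Klf17 window held a CCACNCCC match from base 218 and a CAAGGNCA match from base 223, both on the other strand and overlapping by 3 bases. Klf17 isoforms of 3 exons started at bases 247, 266, 282 and 285 of the full window of 300 bases. Of 32851 such windows of all genes, 6.71% held CAAGGNCA and 17.6% held CCACNCCC. A match is a description of the letters only.

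These 43 replicates were compared between adjacent stages with limma on log2(copies per 100,000 + 1) of embryo means. A gene was called, as risen or fallen, where its unadjusted p was under 0.01 and its log2 difference was over 1 in either direction. The p-values printed are Benjamini-Hochberg adjusted over all 11682 genes tested, so that a gene can have an adjusted p under 0.05 and not be called, or the reverse. Log2 differences are on the scale with the pseudocount, which understates the change of genes at low levels. Klf6, a broadly expressed activator of GC-rich promoters, did not pass the filter on low values and was not tested. It had 16 UMIs in all cells together and a stage mean of at most 0.427 copies. The other 7 genes were tested in all 6 comparisons.

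From oocyte to zygote none of the 7 tested members was called, beside 3.24% of all genes. Klf17 had 4.48 to 12 copies (median 7.02) in the 10 oocytes and 6.70 to 16.2 (median 12.7) in the 9 zygotes, and 5 zygotes lay above every oocyte. Its log2 difference was 0.64 (SE 0.21, limma adjusted p = 0.0313), under the limit on size. Nr5a2 had 1.30 ± 0.417 copies in oocytes and 1.51 ± 0.771 in zygotes (SD, n = 10 and 9). From zygote to E2C again none of the members was called, beside 7.27% of all genes, and Klf17 stood at 12.4 copies (mean of 5 E2C) beside 11.8 in zygotes. With an unadjusted p under 0.05 and no limit on size, 1 member (Klf17) passed from oocyte to zygote and 0 from zygote to E2C by limma, and edgeR and DESeq2 with the same rule as limma called 0 members in both. The level plot shows Klf17 as the one member with a mean over 2 copies before the L2C stage.

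**Figure D1:**
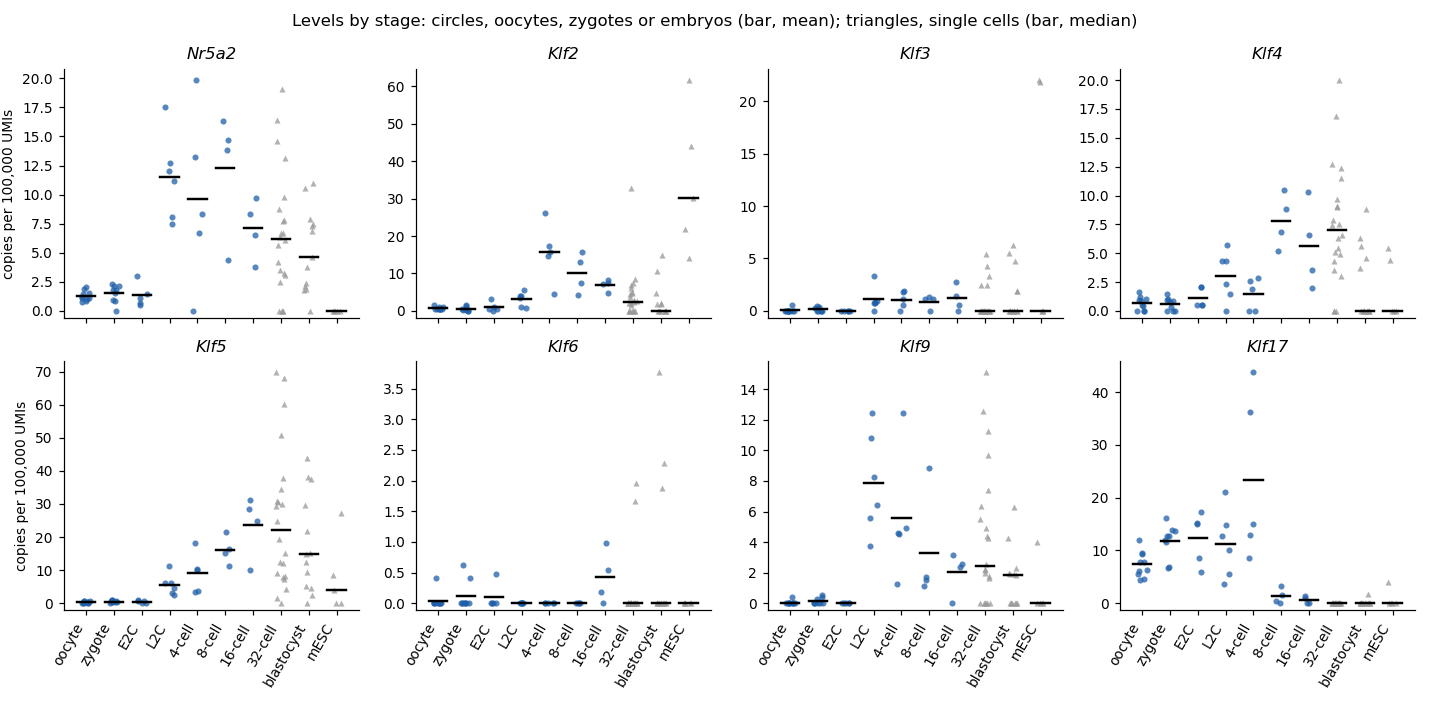
Levels of the 8 genes (copies per 100,000 UMIs of a cell, y axis) by stage (x axis). Points are oocytes, zygotes or embryos (cells for 32-cell, blastocyst and mESC) and bars are means, or medians over cells for those last 3 stages. Klf9, Nr5a2 and Klf5 stand higher in every L2C than in any E2C, and Klf17 is lower in every 8-cell than in any 4-cell embryo.

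The members moved most often from E2C to L2C, where 4 of 7 rose (Klf9, Nr5a2, Klf5 and Klf3) and none fell. In that comparison 48.4% of all genes were called and 25.6% rose. The median log2 difference was 1.06 over the 7 members and 0.03 over all genes. With Klf9 and Klf3 at the bounds given below, which use no pseudocount, the member median was 1.92, which is the bound of Klf3. The value over all genes takes no such bounds, so that 1.92 cannot be set beside it. Under TMM scaling the median of all genes moved from 0.03 to -0.11 here, from 0.11 to 0.00 from zygote to E2C and from -0.16 to 0.00 from 4-cell to 8-cell.

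Klf9, a hormone- and clock-responsive repressor, had 0 UMIs in all 5 E2C (0 of 848348 UMIs, which allows up to 0.354 copies). In the 6 L2C it had 3.75 to 12.5 copies (median 7.36), and all 6 lay above all 5 E2C. On pooled UMIs (50 of 599502 in L2C) Klf9 was at least 23.6-fold higher in L2C, taking 3 UMIs over the E2C stage as the floor, and the fitted log2 difference was 3.07 (SE 0.36, limma adjusted p = 5.76e-11). It was then 4.62, 12.5, 4.55, 1.23 and 4.90 copies in the 4-cell embryos, which overlap with L2C. Its fitted difference of -0.89 was not called (limma adjusted p = 0.249). The 12.5 copies, of 4-cell embryo 2 with 2 cells, rest on 2 UMIs. In 8-cell embryos Klf9 was 1.69, 1.51, 8.87 and 1.15 copies, where 8.87 rests on 3 UMIs, and in 16-cell embryos 2.37, 3.16, 0 and 2.59. From 4-cell to 8-cell its difference of -0.69 was not called (limma adjusted p = 0.239), and without 4-cell embryo 4 it was -1.15 and called (adjusted p = 0.0595). The Klf9 means thus ran from 7.89 at L2C through 5.56 and 3.30 to 2.03 at 16-cell. Neighbours in that order overlapped and differed by less than the larger SD. On pooled UMIs Klf9 had 8.34 copies at L2C, 3.82 at 4-cell, 1.91 at 8-cell and 2.62 at 16-cell. Its fitted log2 difference from 8-cell to 16-cell was 0.088 and not called, so that a fall in this last step is seen in the means alone.

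Nr5a2 had 0.652, 3.0, 1.42, 1.10 and 0.543 copies in the 5 E2C. In the 6 L2C it had between 7.51 and 17.5 copies (median 11.6), all above all E2C. Its log2 difference was 2.47 (SE 0.39, limma adjusted p = 2.01e-07). From L2C onwards no adjacent step of Nr5a2 was called. It had 19.8, 0, 6.66, 8.31 and 13.2 copies in 4-cell, 13.8, 16.3, 4.40 and 14.7 in 8-cell and 8.38, 9.73, 3.81 and 6.56 in 16-cell embryos. The 4-cell embryo without Nr5a2 is embryo 2, which has 2 cells and includes the shallowest cell. The Nr5a2 mean was 11.5 copies at L2C, 9.61 at 4-cell, 12.3 at 8-cell and 7.12 at 16-cell, with embryos of each stage overlapping those of the next, and at 16-cell 2 of the 4 embryos lay below every L2C. From 8-cell to 16-cell its log2 difference of -0.75 was not called (limma adjusted p = 0.480). The median was 6.22 copies in 32-cell cells (0 to 19.1) and 4.65 in blastocyst cells (0 to 11.0). In mESC Nr5a2 had 0 of 103590 UMIs, which allows up to 2.90 copies.

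Klf5 had 0, 0.53, 0.948, 0.551 and 0 copies in the 5 E2C. In the 6 L2C it had 2.50 to 11.1 copies (median 5.34), all above all E2C, with a log2 difference of 1.97 (SE 0.38, limma adjusted p = 9.30e-06). The 11.1 copies are those of L2C embryo 1, a single cell of 17971 UMIs, where 1 UMI is 5.56 copies. This cell held 2 UMIs of Klf5, 2 of Nr5a2 and 1 of Klf9, so that any UMI in it lies above every E2C. The other L2C, of 2 cells each, also lay above every E2C for these 3 genes. Klf5 was 10.4, 10.0, 3.30, 3.70 and 18.3 copies in 4-cell, 21.4, 16.2, 15.3 and 11.3 in 8-cell and 31.3, 24.8, 28.5 and 10.1 in 16-cell embryos. The 10.0 copies, of 4-cell embryo 2, rest on 1 UMI in the shallowest cell. No single step after L2C was called for Klf5, and each pair of neighbouring stages overlapped. From 4-cell to 8-cell the difference was 0.91 (limma adjusted p = 0.123), and it was called without 4-cell embryo 5 (1.37, adjusted p = 0.0352), with TMM scaling (1.26, adjusted p = 0.0440) and with edgeR (1.19, adjusted p = 0.0575). The median was 22.0 copies in 32-cell cells, 14.9 in blastocyst cells and 3.99 in mESC.

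Klf3, which recruits the CtBP corepressors, had 0 UMIs in all 5 E2C and 8 UMIs in the L2C. In L2C it ranged from 0 to 3.29 copies (median 0.784), and 5 of 6 L2C lay above all E2C. On pooled UMIs it was at least 3.77-fold higher in L2C, and the fitted log2 difference was 1.06 (SE 0.29, limma adjusted p = 0.00145). This call was lost with a pseudocount of 2 (0.65), without array weights (0.93), with TMM scaling (0.90) and with DESeq2 (3.07, adjusted p = 0.0445). Stage means of Klf3 stayed at or below 1.21 copies up to 16-cell, so that most embryos rest on 1 to 4 UMIs. Among mESC 2 of 5 cells had Klf3 UMIs, up to 22.0 copies.

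Klf2 and Klf4 had log2 differences of 1.0 (limma adjusted p = 0.0295) and 0.94 (adjusted p = 0.0559) from E2C to L2C, and neither was called. Klf2 was called in this step without E2C embryo 5 (1.23, limma adjusted p = 0.00804), without array weights (1.02, adjusted p = 0.0159) and with UMIs summed over the cells of an embryo (1.08, adjusted p = 0.0159). Klf17 was 5.94 to 17.3 copies in E2C and 3.55 to 21.1 in L2C, with a log2 difference of -0.26 (limma adjusted p = 0.592). The plot of log2 differences sets these values side by side for all members.

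**Figure D2:**
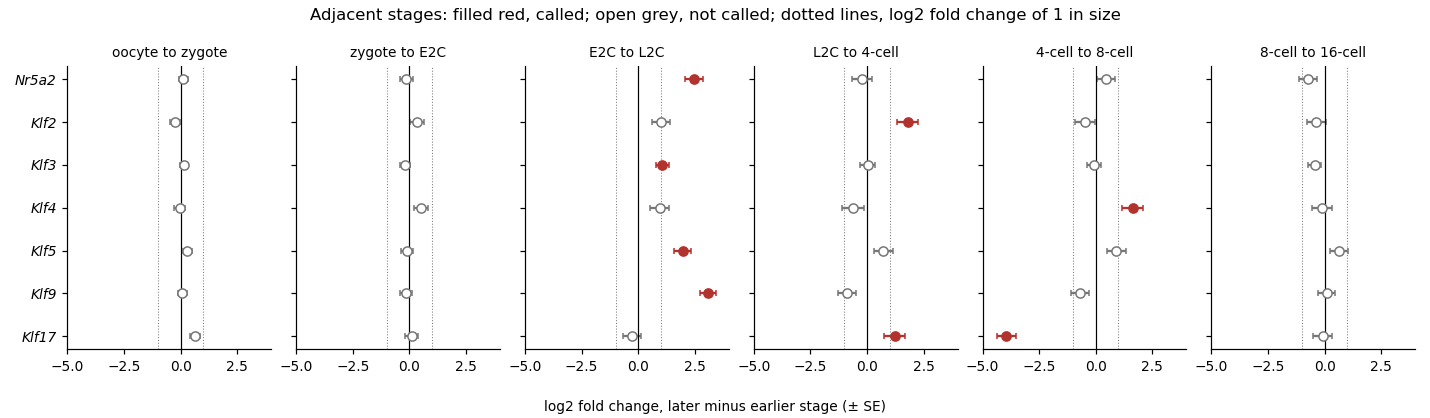
Log2 difference between adjacent stages (x axis, later minus earlier stage, on log2(copies per 100,000 + 1)) for the 7 tested genes (y axis), with 1 panel for each of the 6 comparisons. Bars across the points are the standard error from limma, filled red points are called and the dotted lines mark a log2 difference of 1 in size. Klf9 has the largest rise (3.07, E2C to L2C) and Klf17 the largest fall (-3.95, 4-cell to 8-cell).

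From L2C to 4-cell, 2 of 7 members rose (Klf2 and Klf17) and none fell, beside 6.69% of all genes called and 2.41% that rose. Klf2 had 0.828 to 5.56 copies (median 3.75) in the 6 L2C. It had 14.7, 17.4, 26.2, 15.7 and 4.40 copies in the 4-cell embryos, and 4 of 5 lay above every L2C. The 17.4 copies of embryo 2 rest on 4 UMIs. The log2 difference was 1.79 (SE 0.46, limma adjusted p = 0.0167). Klf2 was 4.28, 13.1, 15.7 and 7.58 copies in 8-cell and 4.67, 8.26, 7.44 and 7.08 in 16-cell embryos, with no further call. Its median was 2.51 copies in 32-cell cells, 0 in blastocyst cells and 30.1 in mESC, where all 5 cells lay between 14 and 61.6.

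Klf17 had 8.56, 14.9, 12.9, 43.7 and 36.2 copies in the 4-cell embryos, beside 3.55 to 21.1 (median 11.4) in the 6 L2C. Embryos 4 and 5 lay above every L2C and the other 3 lay within the L2C range. The 14.9 copies of embryo 2 rest on 3 UMIs. The log2 difference was 1.22 (SE 0.45, limma adjusted p = 0.127). The call was lost without 4-cell embryo 4 (0.74, limma adjusted p = 0.703) or embryo 5 (0.81, adjusted p = 0.624). It was also lost with an adjusted p under 0.05, a pseudocount of 0.5, no filter, no array weights or only cells of at least 10000 UMIs. Of 15 alternatives 8 kept the call and 7 lost it. All 17 4-cell blastomeres held Klf17 UMIs. The 4 cells of embryo 4 had 34.4, 18.7, 62.6 and 59.3 copies and those of embryo 5 had 41.1, 33.3, 27.4 and 43.0, whereas the cells of embryo 1 had 6.86, 15.4, 4.58 and 7.39. The highest single L2C blastomere had 28.1 copies. The 4-cell blastomeres with 27.4 copies in embryo 5 and 18.7 in embryo 4 lay below it, and the other cells of these embryos lay above it. The runs of the 4-cell embryos are not given in the sources used here, so that embryo and run cannot be told apart.

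From 4-cell to 8-cell, 1 member rose (Klf4) and 1 fell (Klf17), beside 15.0% of all genes called, 4.47% that rose and 10.5% that fell. Klf17 dropped to 0.381, 0, 3.17 and 1.51 copies in the 8-cell embryos, all below all 4-cell embryos. The log2 difference was -3.95 (SE 0.43, limma adjusted p = 8.63e-10). Of 26 8-cell blastomeres 6 held a Klf17 UMI, and of 38 16-cell blastomeres 4 did. The 16-cell embryos had 0.928, 0, 0 and 1.30 copies. In 32-cell cells Klf17 had 0 of 762806 UMIs, which allows up to 0.393 copies, and 1 UMI each was found in the blastocyst cells and in mESC. On pooled UMIs, 8-cell and 16-cell embryos held 12.1% and 4.60% of the oocyte level of Klf17, where the median oocyte marker sum was 2.86% and 4.50% of the oocyte level. From oocyte to 4-cell, however, Klf17 did not follow that sum, which was mostly H1foo and Gdf9 in oocytes. At 4-cell Klf17 was 395% of its oocyte level and the marker sum 6.07%.

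Klf4 had 2.86, 0, 0, 1.91 and 2.59 copies in 4-cell embryos. In 8-cell embryos it had 5.16, 10.4, 8.80 and 6.85 copies, all above all 4-cell embryos. Its log2 difference was 1.63 (SE 0.47, limma adjusted p = 0.00976). It was 10.3, 6.62, 3.51 and 1.96 copies in 16-cell embryos, which overlap with 8-cell, and had a median of 6.99 in 32-cell cells and 0 in both blastocyst cells and mESC. From 8-cell to 16-cell none of the members was called, beside 3.36% of all genes. With an unadjusted p under 0.05 and no limit on size, limma gave 0 members there, and edgeR and DESeq2 called 0.

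Detection in single blastomeres, which also depends on the depth of a cell, is given as counts. Klf9 had a UMI in 0 of 10 E2C blastomeres and in 10 of 10 L2C blastomeres of embryos with 2 or more cells, and Nr5a2 in 6 of 10 and 10 of 10. Klf5 was found in 3 of 10 E2C, 9 of 10 L2C, 13 of 17 4-cell, 25 of 26 8-cell and 37 of 38 16-cell blastomeres. Klf4 went from 7 of 17 at 4-cell to 21 of 26 at 8-cell. Klf9 was found in 9 of 26 at 8-cell and 20 of 38 at 16-cell. Its mean over embryos was 3.30 and 2.03 copies there, and its level on pooled UMIs was 1.91 and 2.62. The median depth of a cell was 91609 UMIs in E2C, 58097 in L2C, 32466 in 4-cell, 33030 in 8-cell and 32481 in 16-cell embryos, and the part of depth in these counts was not tested.

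The 29 isoforms assigned to the members held 25.2% of the gene UMIs of Nr5a2, 51.4% of Klf2, 57.6% of Klf3, 22.2% of Klf4, 12% of Klf5, 18.2% of Klf9 and 24.4% of Klf17, beside 69.4% over all genes. Isoform counts thus describe only part of each gene's molecules, and Klf6 had no isoform. Of these isoforms 17 were tested among 29409: 6 of Klf17, 4 of Nr5a2, 3 of Klf5, 2 of Klf2 and 1 each of Klf4 and Klf9. None was called from oocyte to zygote or from zygote to E2C, beside 1.48% and 5.18% of all isoforms, and by limma 0 and 2 had an unadjusted p under 0.05. From E2C to L2C 4 rose and none fell, beside 26.0% called and 12.9% that rose. From L2C to 4-cell 3 rose and 2 fell, beside 4.29% called, 2.61% that rose and 1.68% that fell. From 4-cell to 8-cell 2 fell, beside 7.93% called and 4.30% that fell, and from 8-cell to 16-cell 1 fell, beside 1.97% called and 0.921% that fell.

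Nr5a2 isoforms of 9 exons (PB.3695.14 of 2190 bases and PB.3695.32 of 2015 bases) shared the start at position 136953695, which lies 65 bases upstream of the annotated start that the downstream window belongs to. Both match an annotated splice pattern, and they were at 0 in all E2C. PB.3695.32 rose to L2C by 1.28 (limma adjusted p = 0.00504), PB.3695.14 by 1.07 (adjusted p = 0.0223) and the shorter PB.3695.18 by 1.24 (adjusted p = 0.00325). The call of PB.3695.14 was lost without E2C embryo 4 (1.07, adjusted p = 0.0371) and without array weights (0.96). Isoforms with the shared start made up 18 of 37 Nr5a2 isoform UMIs in L2C (48.6%, exact 95% interval 31.9 to 65.6), 19 of 24 in 4-cell (79.2%, 57.8 to 92.9), 18 of 26 in 8-cell (69.2%, 48.2 to 85.7) and 4 of 17 in 16-cell embryos (23.5%, 6.81 to 49.9). The other Nr5a2 isoforms started further downstream inside the gene. From 8-cell to 16-cell PB.3695.14 fell by 1.17 on the log2 scale (adjusted p = 0.0782), and this call was lost without 8-cell embryo 1 (-1.01, limma adjusted p = 0.292), 16-cell embryo 1 (-0.99, adjusted p = 0.507) or 16-cell embryo 2 (-0.99, adjusted p = 0.419). PB.3695.30, of 3 exons with an unannotated splice site, started at 136884374 in no annotated exon, and it was found with 2 UMIs in oocytes and 5 in zygotes and with 0 in E2C to 4-cell cells. The intervals cover counting error only, and UMIs of 1 stage come from few embryos.

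The last 30 bases before the ends of both 9-exon isoforms, from GENCODE vM21 transcripts, are shown because the ends differ between them and neither held AATAAA or ATTAAA, the usual poly(A) signals. Of 58793 protein-coding transcripts of the annotation 44.1% held 1 of these signals in their last 30 bases.
PB.3695.14 end, chr1:136845094-136845123: taagaaattcagaagttgatctctgttatt
PB.3695.32 end, chr1:136845269-136845298: taaatgatatatcagggtatttgtactgca

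Klf17 transcripts ended at 3 places. The annotated end is position 117757836, the distal end lay 1187 bases beyond it and the proximal ends lay 347 to 356 bases before it. The 30 bases before the annotated and the proximal end, from GENCODE vM21 and with the poly(A) signal in capitals, are given here because the balance of these ends, described with no test, differed between stages.
Klf17 annotated end, chr4:117757836-117757865: ggggctcaaagATTAAAttgaaaagaaggg
Klf17 proximal end, chr4:117758183-117758212: cccctcagtaacttcaggtggcagattgtc

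The proximal end held no such signal and was followed by 8 A in the next 20 bases. In oocytes the annotated end held 23 of 29 Klf17 isoform UMIs (79.3%, exact 95% interval 60.3 to 92.0) and in zygotes 36 of 43 (83.7%, 69.3 to 93.2). In E2C the distal, annotated and proximal ends had 8, 7 and 8 UMIs. In L2C the proximal ends had 16 of 20 (80.0%, 56.3 to 94.3). In 4-cell embryos the distal end had 57 of 71 (80.3%, 69.1 to 88.8), and 54 of these 57 UMIs came from embryos 4 (32) and 5 (22). The 3 other 4-cell embryos had 1, 0 and 2 distal UMIs.

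**Figure D3:**
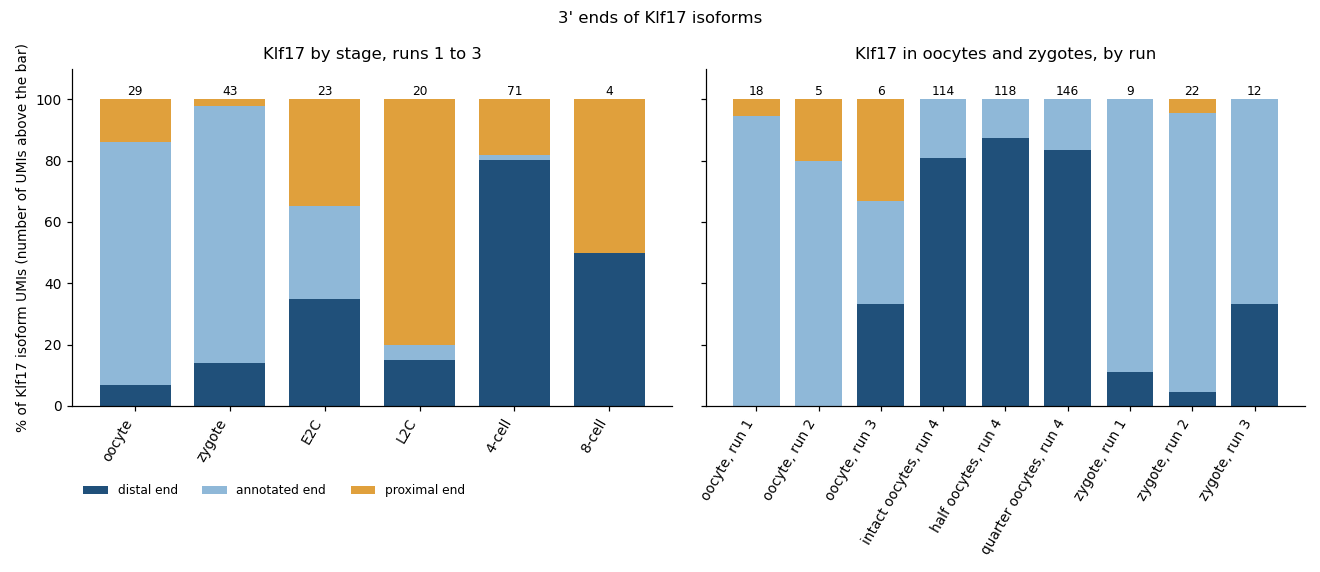
Share of Klf17 isoform UMIs (y axis, percent) at the distal, annotated and proximal 3′ end by stage in runs 1 to 3 (left) and in oocytes, oocyte parts and zygotes by run (right), with the number of UMIs above each bar. The annotated end leads in oocytes (79.3%) and zygotes (83.7%) of runs 1 to 3, the proximal ends in L2C (80.0%), and the distal end in 4-cell embryos (80.3%) and in intact oocytes of run 4 (80.7%).

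Among Klf17 isoforms PB.53021.5 (3 exons, distal end) rose from L2C to 4-cell by 2.78 on the log2 scale (limma adjusted p = 0.000379). It had 0 copies in 5 L2C and 1.85 in the other, and 0.985, 0, 3.97, 17.5 and 15.0 in the 4-cell embryos. It fell from 4-cell to 8-cell by 2.76 (adjusted p = 3.18e-05), and PB.53021.49 (3 exons, proximal end) fell by 1.43 (adjusted p = 0.0185). The fall of PB.53021.49 was not called without 4-cell embryo 4 (-0.89, limma adjusted p = 0.348) or without 8-cell embryo 1 (-1.21, adjusted p = 0.138). PB.53021.50 (2 exons, proximal end) fell from L2C to 4-cell by 1.08 (adjusted p = 0.0616).

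Run 4 held 4 oocyte columns, taken as intact oocytes, with 6 parts of oocytes cut in 2 and 6 of oocytes cut in 4, as whole UMI counts of isoforms. There the distal Klf17 end had 92 of 114 UMIs (80.7%, 72.3 to 87.5) in intact oocytes, where each of the 4 lay between 67.9% and 90.9%. It had 103 of 118 (87.3%) in the 6 parts of oocytes cut in 2 and 122 of 146 (83.6%) in the 6 of oocytes cut in 4. In oocytes of runs 1, 2 and 3 the distal end had 0 of 18, 0 of 5 and 2 of 6 UMIs, and in zygotes 1 of 9, 1 of 22 and 4 of 12. The balance of ends thus moved with the run among oocytes, and the table of run 4 has no entry for the proximal isoforms, so that its shares are of the distal and annotated ends alone. Whether the difference between stages comes with the run was not tested, since the runs of E2C to 16-cell embryos are not given in the sources used here. Per 100,000 isoform UMIs, Klf17 had a median of 12.7 in intact oocytes of run 4 and 1.63 in the 10 oocytes of runs 1 to 3. The table of run 4 lists no isoform of Klf3, Klf5, Klf6 or Klf9, which is not a measured 0 for these genes, and Nr5a2, Klf2 and Klf4 had 4, 3 and 6 UMIs in the intact oocytes.

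The 4-exon Klf5 isoform PB.24937.4 matched the annotated splice pattern, with its start 6 bases upstream and its end at the annotated end. It was at 0 in all 6 L2C and had 0, 0, 1.79, 0.696 and 10.8 copies in the 4-cell embryos. It rose by 1.57 on the log2 scale (limma adjusted p = 0.0141), and this call was lost without 4-cell embryo 5 (0.64, adjusted p = 0.652). It made up 17 of 21 Klf5 isoform UMIs in 4-cell embryos (81.0%, 58.1 to 94.6), 9 of 32 in 16-cell embryos (28.1%, 13.7 to 46.7) and 7 of 7 in mESC. Of the 17 UMIs at 4-cell, 15 came from 1 embryo.

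The 3-exon Klf2 isoform PB.72101.1 started 146 bases upstream of the annotated start and ended 306 bases before the annotated end. It rose from L2C to 4-cell by 1.77 (limma adjusted p = 0.0415), and the call was lost without 4-cell embryo 4 (1.32, adjusted p = 0.483). It held 25 of 42 Klf2 isoform UMIs at 4-cell (59.5%, 43.3 to 74.4), 10 of 31 at 8-cell (32.3%, 16.7 to 51.4) and 32 of 34 in mESC (94.1%, 80.3 to 99.3). From 4-cell to 8-cell it was not called, but it was called as fallen without 4-cell embryo 1, 4-cell embryo 2, 8-cell embryo 3 or 8-cell embryo 4 (-1.45 to -1.58). A 2-exon form that skips the middle exon, PB.72101.2, held 3 of 10 UMIs in oocytes (3 of 5 in run 1 and 0 of 5 in run 3), 2 of 42 at 4-cell, 4 of 31 at 8-cell and 6 of 30 at 16-cell (20.0%, 7.71 to 38.6).

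The 2-exon Klf9 isoform PB.38540.31 started 289 bases upstream of the annotated start. It rose from E2C to L2C by 1.36 (limma adjusted p = 0.000413) and fell from L2C to 4-cell by 1.12 (adjusted p = 0.0497), while the gene level of Klf9 was not called in that second step. All 3 Klf4 isoforms started between 793 and 1886 bases downstream of the nearest annotated start, so that none reached it. A Klf3 isoform of 4 exons with an unannotated splice site, PB.57043.1, started 5781 bases upstream of the annotated start. No Klf3 isoform passed the filter.

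**Figure D4:**
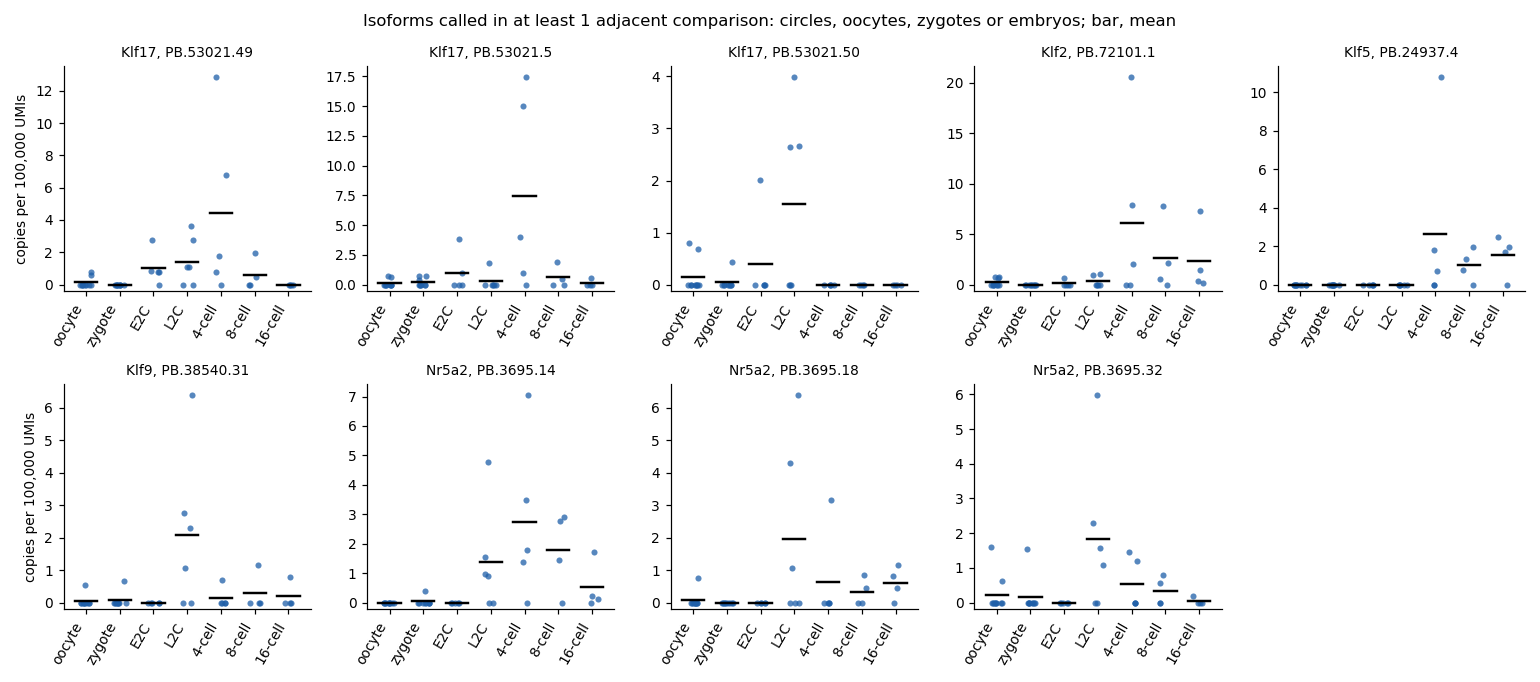
Copies per 100,000 (y axis) of the 9 isoforms of the members that were called in at least 1 comparison, by stage (x axis), with 1 point per oocyte, zygote or embryo and bars at the mean. The Nr5a2 and Klf9 isoforms are at 0 in all E2C and present in part of the L2C embryos, and PB.53021.5 of Klf17 is highest in 4-cell embryos 4 and 5 (17.5 and 15.0 copies).

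The genes related to the members by family or network were counted in the same fit. Of 10 other Klf genes 9 were in the table and 6 were tested, and over the 6 comparisons 1 call was a rise and 3 were falls. From E2C to L2C, where 4 of the members rose, none of the 6 other Klf genes was called by limma, edgeR or DESeq2 (median log2 difference -0.10), and 0 had a limma unadjusted p under 0.05. Klf16 fell from 4-cell to 8-cell, from 6.60 to 0.191 copies (log2 difference -2.11, limma adjusted p = 0.000785). By limma 48.4% of all genes were called from E2C to L2C and 25.6% rose. Of 4 tested Sp genes, which share the zinc finger fold, 2 rose in that step and none fell.

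Of 18 tested nuclear receptors 5 rose and 4 fell from E2C to L2C (median -0.21), where 48.4% of all genes were called, so that this count is near the background. Nr1h3 (LXRα, an oxysterol receptor) rose from L2C to 4-cell, from 3.63 to 9.35 copies (1.45, limma adjusted p = 0.0433), and fell to 2.54 at 8-cell (-1.82, adjusted p = 0.000855). Nr6a1 (GCNF, a repressor of Pou5f1) fell from 10.1 to 1.84 copies from L2C to 4-cell (-1.42, adjusted p = 0.0847). Of 8 tested coregulators 2 fell from E2C to L2C and none rose, beside 2664 of all 11682 genes that fell. This count is near the background as well. Ctbp2, a corepressor that Klf3 recruits, fell from 16.6 ± 2.70 copies (SD, n = 5) to 0.795 ± 0.873 (n = 6), with a limma adjusted p of 9.68e-13. Ncoa6, a coactivator of nuclear receptors, fell from L2C to 4-cell, from 11.8 to 6.66 copies (-1.21, adjusted p = 0.0522).

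Of 11 tested pluripotency genes 2 rose and 1 fell from E2C to L2C, beside 48.4% of all genes called. From 4-cell to 8-cell 4 rose and 1 fell, beside 4.47% of all genes that rose and 10.5% that fell. The median log2 difference there was 0.72, beside -0.16 over all genes. Sall4 fell from zygote to E2C, from 23.6 to 7.26 copies (-1.36, limma adjusted p = 0.000115). Fgf4 rose from E2C to L2C (0.142 to 12.6 copies, 3.11, adjusted p = 2.49e-10) and Pou5f1 fell (6.84 to 2.41 copies, -2.34, adjusted p = 4.57e-05). Tdgf1, the Nodal coreceptor, rose from L2C to 4-cell (2.29, adjusted p = 0.000468) and fell from 8-cell to 16-cell (-1.34, adjusted p = 0.0359), and Tbx3 rose from 4-cell to 8-cell (2.71, adjusted p = 1.60e-06).

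Of 8 tested trophectoderm genes 1 rose from E2C to L2C, beside 25.6% of all genes, and 2 rose from 4-cell to 8-cell, beside 4.47%. From 8-cell to 16-cell 3 rose, beside 222 of all 11682 genes that rose. None fell in any comparison. Tead4 had 0 UMIs in all E2C and 52 in L2C, at least 24.5-fold higher on pooled UMIs (limma adjusted p = 1.58e-11). Krt18 rose from 4-cell to 8-cell from 0.656 to 11.4 copies (3.05, adjusted p = 6.95e-06). Id2 rose from 8-cell to 16-cell (2.32, adjusted p = 0.000873), as did Cdx2, from 0.0927 to 7.63 copies (1.75, adjusted p = 0.000203). Over the same step Klf5 differed by 0.63 and was not called (limma adjusted p = 0.586).

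Across those 43 replicates the profiles most like each member were found by Pearson's r of log2(copies per 100,000 + 1) among 6090 genes, as a description that rests on shared stages and on shared depth. For Nr5a2 these were Glrx2 (r = 0.907), Chek2 (0.889) and Rangap1 (0.887). For Klf9 they were Ints1 (0.932), Rnf11 (0.930) and Slc34a2 (0.929), and for Klf5 Rpl35a (0.952), Crxos (0.940) and Rps29 (0.932). For Klf2 they were Nt5c (0.889), Cited1 (0.888) and Ctsa (0.887), and for Klf4 Bok (0.862), Hint3 (0.849) and Gm11808 (0.824). For Klf17 they were Rdh10 (0.817), Usp7 (0.757) and Pole4 (0.734), lower values than for the other members. Rdh10, which makes retinaldehyde, had its highest mean at 4-cell as well (20.0 copies) and 3.50 at 8-cell.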

How the data were processed

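HIT-scISOseq cDNA of mouse oocytes, embryo cells and mESC was sequenced in 4 runs of 1 SMRT Cell each. Per the paper's methods, the authors split consensus reads (SMRT-Link) by barcode and UMI, aligned them to mm10 (minimap2), named genes by gffcompare and isoforms by SQANTI3. The gene and isoform tables of runs 1 to 3 were deposited by the authors as CPM-like values, scaled to 100,000 UMIs per cell. That unit also holds for E2C, L2C and 4-cell columns, deposited by the authors alike and treated as a score. Run 4 was deposited by the authors as isoform UMI counts. All values (100%) of runs 1 to 3 were whole multiples of 1 UMI within a tolerance of 0.1, and these recovered UMIs gave depths, shares and the count models. Every isoform of the tables of runs 1 to 3 was held by at least 5 cells.

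Each oocyte, zygote or embryo that a column names was 1 replicate, as the mean of its cells. Nothing says that each embryo number was used in 1 run only, so that 1 replicate could hold cells of more than 1 embryo. Adjacent stages were compared two-sided in 1 fit over 7 stages with limma 3.58.1 (trend, array weights, pseudocount 1), for features with at least 1 copy in at least 4 embryos. edgeR 4.0.16 and DESeq2 1.42.0 were alternatives on the recovered UMIs, in R 4.3.3, with Python 3.11.15, numpy 2.4.6, pandas 2.3.3, scipy 1.17.1 and matplotlib 3.10.9 for the rest. The fits were tested on simulated data with changes placed only in features above a set level. That test does not bear on calls of genes or isoforms at lower levels. Shares have exact (Clopper-Pearson) 95% intervals, and a count of 0 allows 3 UMIs.

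The members and lists were chosen with earlier results of these data known. Besides the members, the text names, per comparison, up to 2 called list genes that rose most and 2 that fell most at 5 or more copies in the higher stage, and the 3 genes with the highest r for each member whose highest stage mean is 5 or more. Isoforms are named where called; the others were chosen after their values were seen. Promoter windows came from RefSeq (GRCm38.p6), which matched all members but Klf5, and gene positions and transcript ends from GENCODE vM21.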

Additional observations from a re-analysis of the deposited data

Results flagged for a closer look

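In 6 of 51 groups of 4 to 10 oocytes, zygotes or embryos, 1 of them stood apart from the others by Dixon's test. That test assumes normal values, and it flags every group with 1 value above 0 and all others at 0. The count of 6 is thus not set against a rate by chance. Klf9 had 8.87 copies per 100,000 in 8-cell embryo 3 and 1.15 to 1.69 in the other 3. That embryo has 3 cells. Klf3 had 3.29 copies in L2C embryo 5, from 4 UMIs, and 0 to 0.985 in the other 5. The remaining 4 rest on 1 UMI each, with all others of the group at 0: Klf3 in oocyte 9 (0.561 copies), Klf6 in oocyte 6 (0.417), Klf6 in E2C embryo 4 (0.483) and Klf9 in oocyte 1 (0.391).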

How the results depend on the processing

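Of the alternatives, none turned the direction of a called gene or isoform of the members. The count of members called from L2C to 4-cell was 2 and became 1 with an adjusted p under 0.05, a pseudocount of 0.5, no filter, no array weights or only cells of at least 10000 UMIs, and ranged from 1 to 2 when 1 embryo was left out. The call that was lost was that of Klf17 each time, whereas Klf2 kept its call in 15 of 15 alternatives. Member isoforms called from zygote to E2C became 1 instead of 0 with a pseudocount of 0.5 (0 to 1 with 1 embryo left out). The 2 isoforms called from 4-cell to 8-cell ranged from 1 (without 8-cell embryo 1) to 4 (without 4-cell embryo 1, 4-cell embryo 2 or 8-cell embryo 3). The 1 called from 8-cell to 16-cell became 0 with an adjusted p under 0.05, no filter or no array weights (0 to 1 with 1 embryo left out). Summed over the isoform table, which holds part of each gene's UMIs, Nr5a2 at 8-cell, its highest stage in the gene table, was 2.95 copies per 100,000 in place of 12.3, and its highest stage became L2C (6.55). Klf4 (8-cell), Klf5 (16-cell) and Klf9 (L2C) kept their highest stage, with 2.23 in place of 7.81, 3.86 in place of 23.7 and 2.60 in place of 7.89. The cause of the other shifts was not tested. The calls of Klf9, Nr5a2 and Klf5 from E2C to L2C were kept in 15 of 15 alternatives, and those of Klf17 and Klf4 from 4-cell to 8-cell in 19 of 19. Single embryos were left out at E2C, 4-cell, 8-cell and 16-cell only. How far a call to or from L2C rests on 1 L2C embryo was thus not tested. With the run as a block, 0 members were called from oocyte to zygote. No paired analysis was possible because embryo numbers name embryos within a stage and do not pair them across stages. Depth limits single blastomeres, where 1 UMI is several copies.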
